A study of Mus musculus with 6 samples.

Results

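The family of miR-15, miR-16 and miR-195 is a set of microRNAs that share the same seed, the stretch from base 2 to base 8 that pairs with target messages. Its rows were taken by name, as every row of miR-15a, miR-15b, miR-16, miR-195, miR-497 and miR-322 with any copy number or arm, and this gave 10 of the 695 rows of the table. Of these, 6 are guide arms, the strand that is mainly loaded into the silencing complex (mmu-miR-15a, mmu-miR-15b, mmu-miR-16, mmu-miR-195, mmu-miR-497 and mmu-miR-322). The other 4 are passenger arms, which carry an asterisk (miR-15a*, miR-15b*, miR-16-1* and miR-322*). They come from the same hairpins but do not have the shared seed. The rule uses names alone and no measured value, although the family was picked with earlier results of these data known.

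MicroRNAs of this family repress messages of the cell cycle machinery, among them D-type and E-type cyclins, CDK6, CHEK1 and WEE1, and of the survival factor BCL2. The hairpins of miR-15a and miR-16-1 lie in the long non-coding RNA gene Dleu2, whose human counterpart is often deleted in chronic lymphocytic leukaemia. Those of miR-15b and miR-16-2 lie in an intron of Smc4, which encodes a condensin subunit and is expressed in dividing cells. In human liver cancer miR-195 is commonly described as lowered.

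The samples were 3 liver tumours and 3 pieces of normal-looking liver, each taken next to 1 of those tumours. All came from C57BL/6J mice injected soon after birth with 3E10 particles of AAV-Rian-CMV, an adeno-associated virus vector aimed at the non-coding RNA gene Rian, and all were collected at 6 months of age. The adjacent pieces therefore had the same vector exposure as the tumours, and no liver of an uninjected mouse enters these comparisons. Tissue was bulk, so fewer cells of a type and less RNA per cell cannot be told apart, and the labels give no share of tumour cells. The numbers 1293, 1309 and 1316 tie each tumour to its adjacent piece. The source label of tumour 1316 carries another number than its title, which was used here.

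The sequences of the 6 guide arms are shown because they show what the family shares and where its members part. All 10 rows matched an entry of the RefSeq microRNA table of GRCm38.p6, where the guide arms are listed as the 5′ arms. Sequences run 5′ to 3′, and capitals mark the seed.
mmu-miR-15a: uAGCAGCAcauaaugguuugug
mmu-miR-15b: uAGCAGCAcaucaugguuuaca
mmu-miR-16: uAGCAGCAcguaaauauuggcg
mmu-miR-195: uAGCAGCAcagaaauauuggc
mmu-miR-497: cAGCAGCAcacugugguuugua
mmu-miR-322: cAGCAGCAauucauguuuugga

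The seed was the same in all 6, and the sequences parted from base 9 on or a few bases later. The closest were miR-16 and miR-195, identical at 19 of 21 positions, and next came miR-15a and miR-15b, identical at 18 of 22. The most distant were miR-16 and miR-497, with 11 of 22 positions identical, and miR-195 and miR-322, with 11 of 21. Probe sequences were not analysed here, so how far the probes of miR-16 and miR-195, or of miR-15a and miR-15b, read each other's target is not known.

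The 6 mature sequences come from 7 hairpins in 4 clusters. In GRCm38.p6 miR-15a lies at chr14:61632075-61632096 on the minus strand and 1 copy of miR-16 at chr14:61631936-61631957, both within Dleu2. On the plus strand miR-15b lies at chr3:69009775-69009796 and the second copy of miR-16 at chr3:69009918-69009939, both within Smc4. Since both copies give the same mature miR-16, its row sums the output of the Dleu2 and Smc4 clusters. miR-497 at chr11:70234730-70234751 and miR-195 at chr11:70235062-70235082, both on the plus strand, lie in no other gene of the RefSeq table than microRNA genes. miR-322, the mouse counterpart of human miR-424, lies at chrX:53054306-53054327 on the minus strand, within the long non-coding RNA gene C430049B03Rik.

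The question was whether members and arms of the family differ between tumour and adjacent liver. Of the 6 guide arms, miR-195, miR-497, miR-16, miR-15a and miR-322 were lower in all 3 tumours than in any adjacent piece, and miR-15b was higher in all 3. Tumours were likewise lower without overlap in 22.9% of all rows, and in 64.3% of the 171 rows outside the family brightest in adjacent liver. They were higher without overlap in 8.63% of all rows and 2.92% of those bright rows. Those bright rows were picked by their level in adjacent liver alone, which leaves out rows high only in tumours. Sizes of the guide arms ranged from 52.9% of the adjacent level for miR-195 to 115.5% for miR-15b. No member passed an adjusted p of 0.05 in limma over all 695 rows, where 2.88% of rows did in either direction. Of these 20 rows, 2 were lower and 18 higher in tumours. At an unadjusted p under 0.05, 5 members were lower and 0 higher, and 14.1% of all rows were lower by that rule. The 5 were all guide arms, and of the 171 bright rows 85 were lower by that rule. All values are deposited log2 levels, with the base of the logarithm taken as 2, and differences are tumour minus adjacent.

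The largest difference was that of miR-195, which in developing heart muscle is known to restrain division. Its level was 6.69, 7.57 and 7.52 in tumours 1293, 1309 and 1316, against 8.07, 8.18 and 8.28 in the adjacent pieces of the same numbers. The highest tumour lay 0.50 below the lowest adjacent piece, and tumour 1293 stood well below the other tumours. Means were 7.26 ± 0.50 in tumours and 8.18 ± 0.11 in adjacent liver (SD, n = 3 each), a difference of -0.92 ± 0.24 (SE; limma adjusted p = 0.12). Only 5 of the 695 rows had a lower difference.

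Its cluster partner miR-497, transcribed with it, had levels of 6.88, 7.51 and 7.45 in tumours 1293, 1309 and 1316, against 7.95, 8.01 and 8.13 in adjacent pieces. The groups did not overlap, with 0.44 between the highest tumour and the lowest adjacent piece. Means were 7.28 ± 0.35 in tumours and 8.03 ± 0.09 in adjacent liver (SD, n = 3 each), a difference of -0.75 ± 0.17 (SE; limma adjusted p = 0.093), or 59.4% of the adjacent level. Over the 6 arrays miR-195 and miR-497 correlated at r = 0.997, the closest of the 15 pairs of guide arms. That correlation, like the others given here, is a description over arrays that share the tumour and adjacent difference.

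For miR-16, the most widely expressed member, levels were 7.68, 8.71 and 8.32 in tumours 1293, 1309 and 1316, against 8.91, 8.89 and 8.81 in adjacent pieces. Tumours spread over 1.03 and adjacent pieces over 0.10, and tumour 1309 came within 0.10 of the lowest adjacent piece. Means were 8.24 ± 0.52 in tumours and 8.87 ± 0.05 in adjacent liver (SD, n = 3 each), and the difference was -0.63 ± 0.25 (SE; limma adjusted p = 0.24). Without tumour 1293 it was -0.35 (limma adjusted p = 0.079), so this value moved by more than 1.5 times with 1 array.

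The Dleu2 member miR-15a stood at 9.95, 10.28 and 9.83 in tumours 1293, 1309 and 1316, against 10.46, 10.59 and 10.63 in adjacent pieces. Here tumour 1316, not tumour 1293, was the lowest array, and the groups lay 0.17 apart. Means were 10.02 ± 0.23 in tumours and 10.56 ± 0.09 in adjacent liver (SD, n = 3 each), a difference of -0.54 ± 0.13 (SE; limma adjusted p = 0.096), or 68.9% of the adjacent level.

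The level of miR-322 was 6.65, 7.42 and 7.33 in tumours 1293, 1309 and 1316, against 7.68, 7.64 and 7.67 in adjacent pieces. Adjacent pieces agreed within 0.04, and tumour 1293 lay 0.68 below the next tumour. Means were 7.13 ± 0.42 in tumours and 7.66 ± 0.02 in adjacent liver (SD, n = 3 each), a difference of -0.53 ± 0.20 (SE; limma adjusted p = 0.22). Without tumour 1293 the difference was -0.29 (limma adjusted p = 0.0092), smaller in size and past the threshold.

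In the other direction, miR-15b had levels of 8.98, 8.97 and 9.30 in tumours 1293, 1309 and 1316, against 8.87, 8.85 and 8.92 in adjacent pieces. All 3 tumours were above all 3 adjacent pieces, but by little in tumours 1293 and 1309. Means were 9.08 ± 0.19 in tumours and 8.88 ± 0.03 in adjacent liver (SD, n = 3 each), a difference of 0.21 ± 0.10 (SE; limma adjusted p = 0.33). Without tumour 1316 it was 0.10 (limma adjusted p = 0.41).

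**Figure D1:**
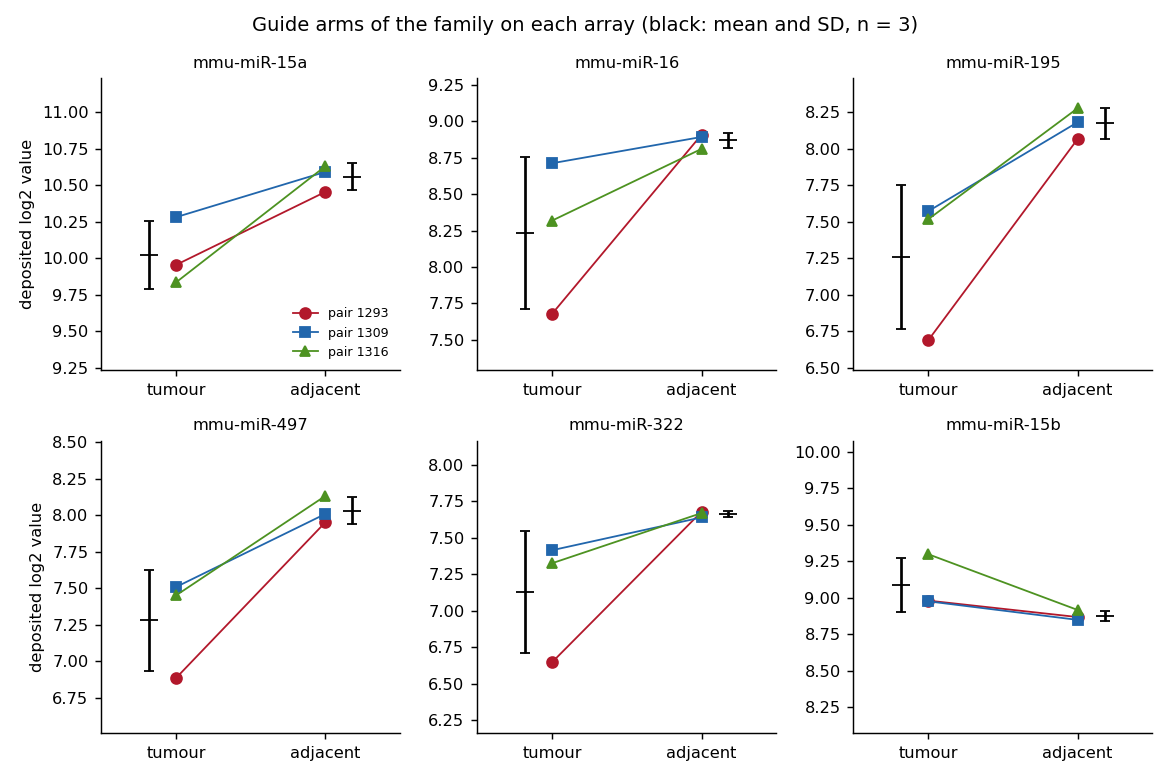
Deposited log2 values (vertical axis, 2 units high in every panel) of the 6 guide arms in tumours and adjacent liver, with lines joining tissue of the same number and black bars for the mean and SD (n = 3). Lines climb towards adjacent liver for 5 members and drop for miR-15b, and tumour 1293 is the lowest array for miR-16, miR-195, miR-497 and miR-322.

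The passenger arms were dim, and their groups overlapped. In adjacent liver their means lay between 6.22 and 6.50, near the array medians of 6.39 to 6.44, so these rows may be background and no detection calls were used here. For miR-15a*, levels were 6.78, 6.27 and 6.31 in tumours, against 6.20, 6.28 and 6.16 in adjacent pieces, a difference of 0.24 ± 0.14 (SE; limma adjusted p = 0.45) in which tumour 1293 stood alone. Without that tumour the difference was 0.08. For miR-16-1*, of the Dleu2 cluster, they were 6.53, 6.28 and 6.19 in tumours, against 6.24, 6.31 and 6.34 in adjacent pieces, a difference of 0.04 ± 0.10 (SE; limma adjusted p = 0.86).

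The 2 remaining passenger arms gave -0.01 ± 0.06 for miR-15b* and -0.10 ± 0.07 for miR-322* (SE; limma adjusted p = 0.95 and 0.55). All of their values lay between 6.11 and 6.56. Tumour 1293 was the highest tumour for all 4 passenger arms, whereas it was the lowest tumour for 4 of the 6 guide arms. Over all rows this array had the highest median of the 6, at 6.44. The 171 rows outside the family brightest in adjacent liver had a median of 6.81 there, against 7.17 and 7.11 in tumours 1309 and 1316. What this array-wide shift adds to the contrast of arms was not tested.

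**Figure D2:**
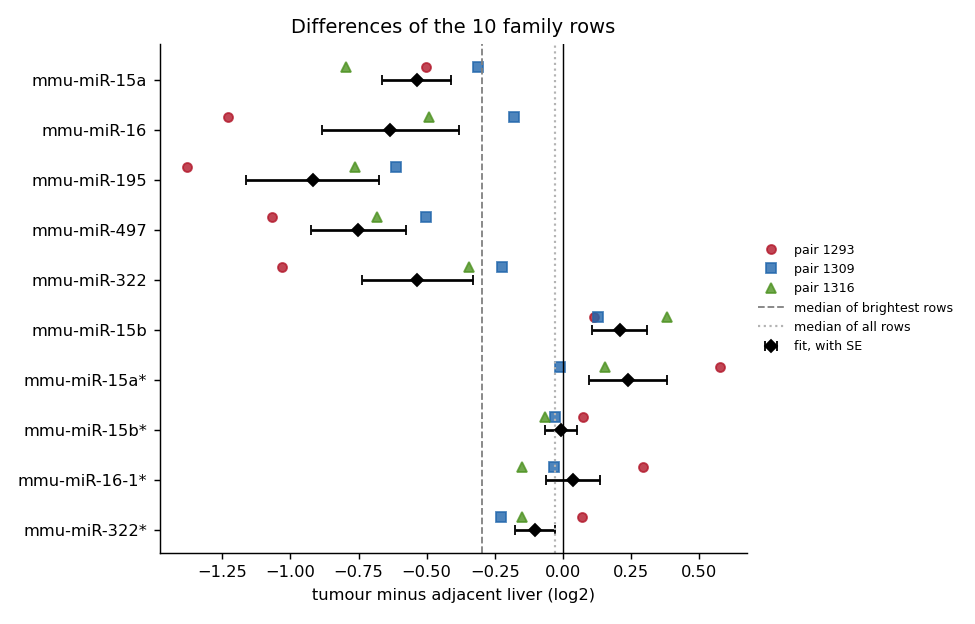
Tumour minus adjacent liver (horizontal axis, log2) for the 10 rows of the family, as the limma estimate with its SE (diamonds) and in each of the 3 pairs (coloured points). The dashed line is the median of the 171 brightest other rows, at -0.30, and the dotted line that of all rows, at -0.03. Guide arms other than miR-15b lie at -0.53 or below, and passenger arms between -0.10 and 0.24.

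As a set, the 10 rows had a median difference of -0.32 and 7 of 10 had a lower mean in tumours, where all 695 rows had a median of -0.03 and 59.6% with a lower mean. The 6 guide arms had a median of -0.59. Groups did not overlap for 5 members lower in tumours, where 22.9% of all rows did so, and for 1 member higher, where 8.63% of all rows did so. Among the 171 rows outside the family that were brightest in adjacent liver, the median was -0.30, 90.6% had a lower mean in tumours, and 64.3% were lower without overlap. Picking rows by their level in adjacent liver favours a lower direction, since rows high only in tumours are left out. An example left out is miR-154*, with means of 10.97 in tumours and 6.45 in adjacent liver. Of the 18 rows called higher in limma, 1 was among the bright rows. The 5 lower guide arms thus had the direction of most bright rows, and their part in a general difference of bright rows was not tested.

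Set against those 171 bright rows, members took different places. The 2 sets were not matched in brightness, with means in adjacent liver of 6.72 to 14.8 for the bright rows and 7.66 to 10.56 for the guide arms. For miR-195, 5 of the 171 had a lower difference, for miR-497 13, for miR-16 23, and for miR-15a and miR-322 36 each. For miR-15b, 164 of the 171 lay below it. By pair, the guide arms had median differences of -1.05, -0.27 and -0.59 in pairs 1293, 1309 and 1316, and the bright rows -0.53, -0.17 and -0.24.

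**Figure D3:**
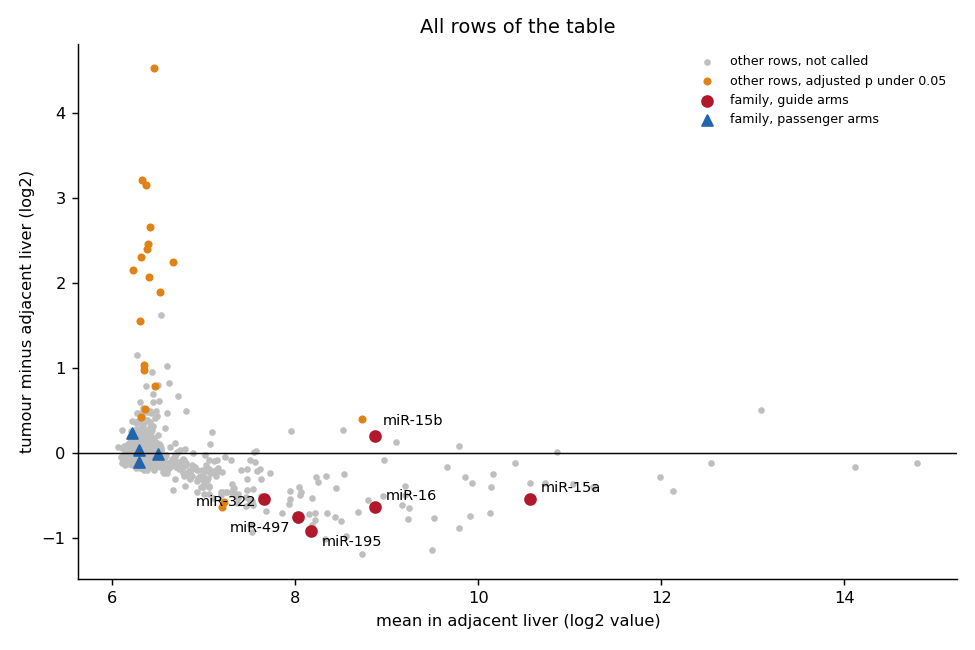
Tumour minus adjacent liver (vertical axis, log2) against the mean in adjacent liver (horizontal axis, deposited log2 value) for all 695 rows. Red points are the guide arms and blue triangles the passenger arms of the family, and orange points are the 20 rows called in limma. The 5 lower guide arms lie among other bright rows below 0, and miR-15b lies above most of them.

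Centring each array on the median of the bright rows put the median difference of all rows at 0.32, against -0.03 as deposited, and the members are then read relative to the bright rows. Since those rows were picked by their level in adjacent liver, the centring itself moves differences upwards. Rows called higher in limma rose from 18 as deposited to 58. The difference of miR-15b became 0.56 ± 0.12 (SE) and passed limma's test (adjusted p = 0.043), as did 8.35% of all rows in that direction. Those of miR-195 and miR-497 were -0.57 ± 0.16 and -0.40 ± 0.11 (SE; limma adjusted p = 0.079 and 0.075), and those of miR-15a, miR-16 and miR-322 were -0.19, -0.29 and -0.19 (limma adjusted p = 0.24, 0.17 and 0.22). No member was called lower. Over 17 other ways of processing the values or choosing the arrays, limma's adjusted p of miR-15b ranged from 0.043 to 0.64.

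Calls of the lower members depended on tumour 1293. That array was the lowest of the 6 in 43.0% of all rows, against 9.06% to 16.8% for each of the others, and its rows lay a median of 0.23 from the adjacent mean, against 0.07 and 0.08 in tumours 1309 and 1316. Without it, the spread among tumours was smaller and limma called miR-15a (-0.50 ± 0.13), miR-195 (-0.63 ± 0.07), miR-322 (-0.29 ± 0.05) and miR-497 (-0.55 ± 0.06) lower (SE; adjusted p = 0.043, 0.0026, 0.0092 and 0.0028), where 12.2% of all rows were called lower. The bright rows then had 78 of 171 called lower. Without pair 1293, miR-195 and miR-497 were called lower (limma adjusted p = 0.017 for both), with 3.02% of all rows. Without tumour 1309 it was miR-15a alone (-0.67, limma adjusted p = 0.013), with 5.32% of all rows. Array weights, which give less weight to arrays that deviate, made calls of all 5 lower members, with 12.5% of all rows called lower. Leaving out tumour 1316 or any 1 adjacent piece left 0 members called. Over the same 17 settings the lowest adjusted p in limma was 0.013 for miR-15a, 0.039 for miR-16, 0.0026 for miR-195, 0.0092 for miR-322 and 0.0025 for miR-497, and the highest was 0.60 for each of these.

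Members and arms were then compared with each other over the 6 arrays, by an exact two-sided permutation test of the log2 ratio of 2 rows in 9 pairs. With 3 arrays against 3 this exact permutation test cannot give less than p = 0.10, so none of the 9 could pass. The difference of miR-15b exceeded that of miR-16, which the same Smc4 transcript encodes, by 1.34, 0.31 and 0.87 in pairs 1293, 1309 and 1316. The mean was 0.84 ± 0.52 (SD, n = 3 pairs; exact p = 0.10, adjusted over the 9 p = 0.23), and the ratio was higher in every tumour than in any adjacent piece.

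Of the other guide arms set against miR-16, only the ratio for miR-195 lay on the same side in all pairs, at -0.15, -0.43 and -0.27 in pairs 1293, 1309 and 1316. Its mean was -0.28 ± 0.14 (SD, n = 3 pairs; exact p = 0.20, adjusted p = 0.30), and the groups overlapped. For miR-15a, which shares the Dleu2 transcript with miR-16, the values were 0.73, -0.13 and -0.31, with a mean of 0.10 ± 0.55 (SD, n = 3 pairs; exact p = 0.90). Pair 1293 thus went against the other pairs, and without it the mean was -0.22. For miR-497 the mean was -0.12 ± 0.25 and for miR-322 0.10 ± 0.13 (SD, n = 3 pairs; exact p = 0.60 and 0.40).

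Between the arms of a hairpin, the guide arm had the lower difference of the 2 for miR-15a in all pairs, by a mean of -0.78 ± 0.42 (SD, n = 3 pairs; exact p = 0.10, adjusted p = 0.23). For miR-16 against miR-16-1* the values were -1.52, -0.15 and -0.34 in pairs 1293, 1309 and 1316, a mean of -0.67 ± 0.74 (SD, n = 3 pairs; exact p = 0.10, adjusted p = 0.23), and without pair 1293 the mean was -0.25. For miR-322 it was -0.43 ± 0.59 (SD, n = 3 pairs; exact p = 0.20), pair 1309 showed almost none of it (0.0008), and without pair 1293 the mean was -0.096. For miR-15b the guide arm had the higher difference, by 0.22 ± 0.21 (SD, n = 3 pairs; exact p = 0.10, adjusted p = 0.23), and by 0.099 without pair 1316. Passenger arms lay near background, which limits what these ratios tell about the arms. In pair 1293 their own differences were 0.58 (miR-15a*), 0.07 (miR-15b*), 0.29 (miR-16-1*) and 0.07 (miR-322*), and these enter the ratios. The bright rows had a median difference of -0.53 in that pair.

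**Figure D4:**
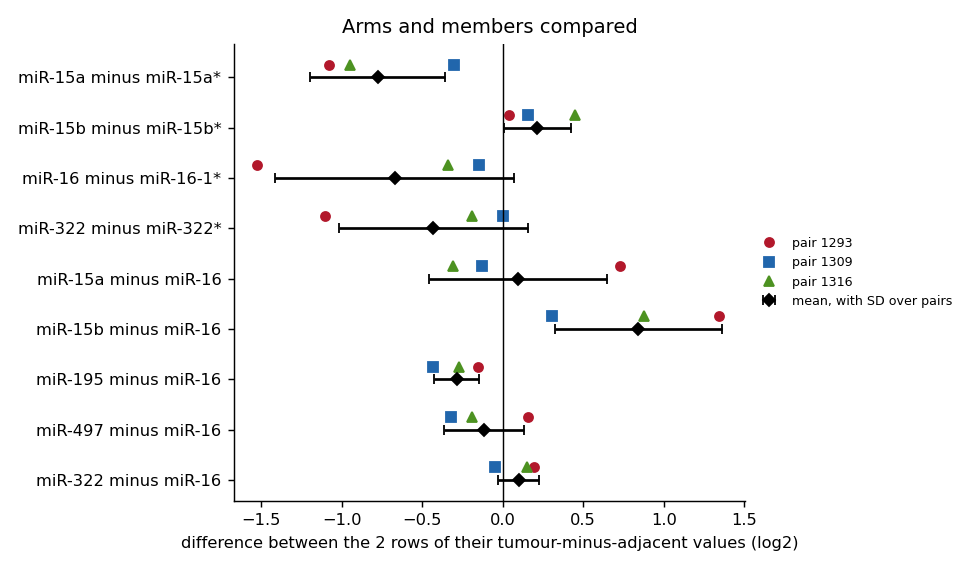
Difference between 2 rows of the family in their tumour-minus-adjacent values (horizontal axis, log2), as the mean with its SD over 3 pairs (diamonds) and in each pair (coloured points). Above are guide against passenger arms, below the other guide arms against miR-16. The contrast of miR-15b and miR-16 is above 0 in all 3 pairs, and pair 1293 sets the spread of several others.

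Over the 6 arrays the guide arms other than miR-15b correlated with each other at r = 0.75 to 0.997. miR-15b correlated with them at r = -0.82 (miR-15a) to -0.32 (miR-322). Among the 221 other rows with an SD of at least 0.2, the 5 most like the mean pattern of the 7 members brighter than the table median were miR-30e (r = 0.999), miR-1892 (0.998), miR-23a (0.998), miR-30d (0.998) and miR-143 (0.997). Each of the 5 was lowest in tumour 1293 and lower in all tumours than in any adjacent piece, with differences from -0.41 for miR-30e to -0.70 for miR-30d. Since they were chosen for likeness over the same 6 arrays, this order of arrays follows from the choice. The mean pattern also includes miR-15b and miR-15b*. miR-143 is also a marker of stromal cells.

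The cluster on X that holds miR-322 also encodes miR-503, miR-351, miR-542 and miR-450, and 9 of its other rows were in the table. Of these, 0 passed limma's adjusted p of 0.05 and 0 had an unadjusted p under 0.05. Their median difference was -0.04, and they were dim, with means of 6.20 to 6.55 in adjacent liver. The nearest neighbour miR-503, whose seed differs from the family's in the last base, differed by -0.14 ± 0.09 between tumour and adjacent liver (SE; limma adjusted p = 0.48). Its sequence is shown beside the 6 above for that base.
mmu-miR-503: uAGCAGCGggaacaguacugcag

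For miR-351 the levels were 7.46, 6.41 and 6.33 in tumours 1293, 1309 and 1316, against 6.36, 6.26 and 6.45 in adjacent pieces. Tumour 1293 alone was high, where the same tumour had the lowest miR-322 of all arrays. That array also had the lowest median of the bright rows, at 6.81, and the highest median of all rows, at 6.44. The difference of miR-351 was 0.38 ± 0.30 (SE; limma adjusted p = 0.58). Outside the family, 5 mature sequences listed by RefSeq have the family's bases 2 to 7, and of these only miR-503 had a row.

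Most markers of cell types other than hepatocytes also had a lower mean in tumours, as did 59.6% of all rows and 90.6% of the bright rows. The part of these markers in the differences of the family was not tested. The 5 stromal microRNAs (miR-143, miR-145, miR-199a-3p, miR-199a-5p and miR-214) had mean levels of 6.63 to 6.89 in tumours and 7.14 to 7.23 in adjacent liver. A lower mean was seen in 4 of 5, with differences from -0.85 (miR-199a-3p) to -0.21 (miR-199a-5p), and miR-145 differed by 0.07. For the 6 leukocyte microRNAs the range was 6.79 to 7.29 in tumours and 7.23 to 7.41 in adjacent liver, with 4 of 6 lower. The 2 endothelial rows of miR-126 lay at 8.28 to 8.64 in tumours and 8.67 to 8.73 in adjacent liver, and both were lower. The erythroid miR-451 and miR-144 had means of 7.75 to 8.47 in tumours and 8.14 to 8.80 in adjacent liver, with both lower on average and the groups overlapping. The hepatocyte microRNAs miR-122, miR-192 and miR-194 averaged 11.51 to 11.97 in tumours and 12.14 to 12.15 in adjacent liver. All 3 had a lower mean in tumours, and 2 of them were lower without overlap. Their differences were -0.11 ± 0.12, -0.45 ± 0.11 and -0.76 ± 0.21 in that order (SE; limma adjusted p = 0.66, 0.097 and 0.12). The defining microRNA of liver, miR-122, was the brightest row of the table in adjacent liver at 14.8. No marker of these lists was called in limma with all arrays. Without tumour 1293, 4 members of the family were called lower. In that setting limma also called lower 4 of the 5 stromal, 1 of the 3 hepatocyte and 1 of the 6 leukocyte markers. Of the endothelial markers 1 of 2 was called lower, and of the erythroid markers 0 of 2. By the same fit, 12.2% of all rows and 78 of the 171 bright rows were called lower. No value on this scale marks a microRNA as absent.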

How the data were processed

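Total RNA was labelled with cyanine 3-pCp by Agilent's miRNA protocol, per the labels' protocols. The authors deposited log2 values from RMA (background correction, quantile normalization, summary over probes) and used limma, per the submitters' processing notes, which give no versions. Which base the logarithm has is not given in the sources used here, and 2 was assumed. The table held 695 rows, 0 missing values and 0 columns of other series, and no 2 arrays were identical. Scanner files were not analysed here.

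All 695 rows were fitted with limma 3.58.1 (R 4.3.3), lmFit and eBayes, tumour against adjacent with no block, two-sided, Benjamini-Hochberg threshold 0.05. The fit was tested on 50 simulated sets of 695 rows and called 64.7%, 90.1% and 98.0% of changes of 0.5, 1 and 2 (log2) and 0.47% of unchanged rows, with equal spread in both groups. In these arrays tumours varied more, with a median SD 2.85 times that of adjacent pieces. The numbers pair tissue taken side by side, and within pairs deviations from group means correlated at -0.05, 0.07 and -0.003. Whether the tumours are from separate animals is not labelled, so p-values may measure less than the spread between animals. The number of arrays limits the precision.

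Named were all rows of the family, the miR-322 neighbours, rows sharing the seed, and the 5 rows most like the family in Pearson's r. Members and lists were chosen with earlier results of these data known. Sequences and positions are RefSeq's (GRCm38.p6). Exact tests used scipy 1.17.1 and figures matplotlib 3.10.9. Alternatives were the replicate block, quantile normalization, centring, a filter on dim rows, an intensity trend, array weights, and leaving out arrays or pairs.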

Additional observations from a re-analysis of the deposited data

How the results depend on the processing

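With a replicate block for the pair, 0 members were called, as without it, and limma's adjusted p was 0.145 for miR-195 and miR-497, 0.16 for miR-15a and 0.26 for miR-16 and miR-322. The block changed no call of a member, and exact sign flips over the 3 pairs gave p = 0.25 or more in the 9 comparisons between members, 0.25 being the smallest they can give. Directions of the 6 guide arms held in all 17 alternatives, with ranges of -0.67 to -0.19 (miR-15a), -0.87 to -0.29 (miR-16), -1.07 to -0.57 (miR-195), -0.69 to -0.19 (miR-322), -0.88 to -0.40 (miR-497) and 0.10 to 0.56 (miR-15b). Members called lower numbered 5 with array weights and 0 to 4 when arrays or pairs were left out. Centring on the bright rows, which were picked by their level in adjacent liver, gave 1 called higher. The median of the 10 rows was -0.21 after quantile normalization, -0.36 centred on the 75th percentile, 0.030 centred on the bright rows, -0.24 with array weights, and -0.37 to -0.23 without single arrays or pairs. It was -0.54 over the 7 members brighter than the table median, since the filter removed 3 passenger arms. Passenger arms changed sign: miR-15b* was at 0.34 and miR-322* at 0.25 when centred on the bright rows, miR-16-1* was at -0.0021 centred on the 75th percentile and -0.063 with array weights, and without single arrays or pairs miR-15b* ranged from -0.048 to 0.023 and miR-16-1* from -0.091 to 0.13. Set against miR-16, miR-15a ranged from -0.22 to 0.30 and miR-497 from -0.26 to 0.0064 without single arrays or pairs, and miR-497 was at 0.0095 after quantile normalization. The cause of these changes was not tested. Signal near background limits the passenger arms.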
